A study of Mus musculus with 8 samples.

Results

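The genes described here mark microglia and macrophages or carry inflammatory signals, and comprise 35 listed genes out of 20660 named on the array. They were taken by symbol through the RefSeq accession of each probe, and the brightest probe in the sample channel stood for a gene. A probe was found for 34 of the 35, and none was named for *Cd68*, a lysosomal membrane protein of macrophages. Of these 34 genes, 28 were well above background on enough arrays to be tested, and 6 were not.

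Hippocampal RNA was compared between adult male Muta Mouse given benzo[a]pyrene (BaP), a carcinogenic polycyclic aromatic hydrocarbon, and vehicle controls. Muta Mouse is a transgenic strain that carries a recoverable bacterial reporter gene for scoring mutations, and both groups were of this strain. BaP was given in olive oil by oral gavage at 70 mg/kg bw per day on 3 days, control mice were the vehicle group, and the tissue was taken 24 hr after the last dose. Of the 5 animals per group that the labels mention, 4 per group were hybridized, 1 mouse to an array, at 9 weeks of age by the study's methods. All samples carried Cy5 and were hybridized against universal mouse reference RNA in Cy3 on the 8 arrays of 1 slide, without a dye swap.

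Microglia are the resident macrophages of the brain, and in the healthy hippocampus they survey the tissue through fractalkine and nucleotide receptors. Activated microglia typically lower this homeostatic program and raise phagocytic, antigen-presenting and cytokine genes. Perivascular macrophages and the macrophages of the choroid plexus and meninges share many of these markers, so a piece of tissue reports their sum.

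For 4 of the 8 arrays, control mice 3 and 4 and BaP-exposed mice 3 and 4, title and source name placed the mouse in opposite groups. The titles were used. All 4 of these arrays lay in the second row of the slide, and the arrays with agreeing labels, control mice 1 and 2 and BaP-exposed mice 1 and 2, lay in row 1. Values from row 1 alone, row 2 alone and source-name groups are therefore given for the tested genes that are described mouse by mouse from the 35. *Hbb-bs*, a beta-globin gene chosen after its values were seen, had a log2 ratio of 5.46 and 5.05 in control mice and 3.54 and 2.95 in BaP-exposed mice of row 1. By title it had 5.13 and 5.08 in the controls and 3.23 and 3.40 in the exposed mice of row 2. Its groups by title did not overlap over the 8 arrays, so the same direction in both rows follows from its choice. In the reference channel its probe was above background on 2 of 8 arrays. *Cldn5*, an endothelial tight junction gene, was chosen in the same way and did not overlap by title either. It had 5.37 and 5.37 against 4.85 and 4.87 in row 1, and by title 5.39 and 5.25 against 4.71 and 4.69 in row 2. Median spot intensity in Cy5 ranged from 108 to 174 between arrays, with a background of 67 to 71. The array of control mouse 1 carried 1483 outlier spots, and the other arrays carried 310 to 371.

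Microglial RNA was measured in every mouse, and 10 of the 11 genes of homeostatic microglia were bright enough to test. Of the 34 genes with a probe, 6 were well above background in Cy5 on fewer than 4 of 8 arrays. They were *Spi1*, *Cybb*, *Cd163*, *Tnf*, *Il1b* and *Il6*, and the 28 tested genes are those that passed this filter. Of the 28 tested genes, 27 were well above background on all 8 arrays, and the exception, *H2-Aa*, was so on 6. All values of a gene below are log2 ratios of hippocampus over the reference RNA. A ratio of 1 gene cannot be ranked against that of another as an amount of RNA, because the reference level of each gene differs. In control mice, 18 of the 28 genes had a mean ratio above 0, among them *Cx3cr1* at 5.59 ± 0.13 (SD, n = 4) and *C1qa* at 4.31 ± 0.09 (SD, n = 4). The chemokines *Ccl2* and *Ccl3* lay far below 0, at -4.78 ± 0.13 and -3.44 ± 0.22 (SD, n = 4 each). In the reference channel, the probes of *P2ry12*, *P2ry13*, *Gpr34* and *H2-Aa* were above background on 0 of 8 arrays, that of *Fcrls* on 3 and that of *Mrc1* on 6. Where the reference was at background, the ratio over it is only a lower bound. In the Cy5 channel alone the log2 fold changes of these 6 genes were 0.20, 0.13, -0.11, 0.08, 0.08 and -0.15, in that order. The dyes were not swapped, so these ratios also contain any dye effect of a probe.

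**Figure D1:**
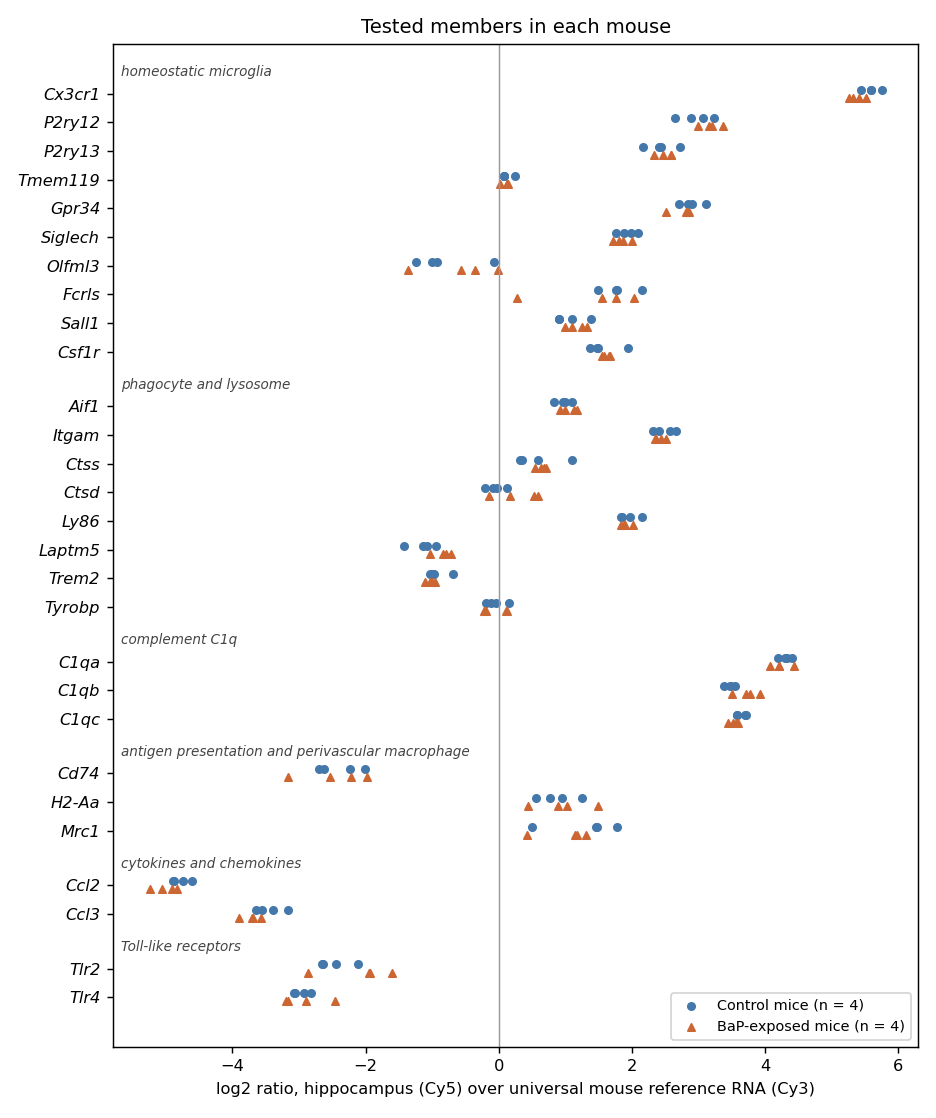
Log2 ratio of hippocampus (Cy5) over universal mouse reference RNA (Cy3) for the 28 tested genes, grouped by role, with a circle for each of 4 control mice and a triangle for each of 4 BaP-exposed mice. The groups overlap for every gene, and BaP-exposed mouse 1 lies apart for *Fcrls*, at 0.27.

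BaP exposure was not accompanied by a called change in any of the 28 genes. A call required an adjusted p of 0.05 or less from limma, Benjamini-Hochberg adjusted across the 32600 probes of the whole table, and a change of at least 1.5-fold. By this rule 0 of 28 genes were called, against 0.0199% of all 15090 tested genes. The lowest adjusted p of any of the 28 was 0.528, for *C1qb*. No gene had all BaP-exposed mice on the same side of all control mice, which was the case for 5.29% of all genes. At an unadjusted limma p of 0.05, 4 of 28 genes (14.3%) passed, against 9.46% of all genes. Of these 4, *C1qb* and *Laptm5* were higher in BaP-exposed mice, where 5.08% of all genes passed in that direction. *Cx3cr1* and *Ccl3* were lower, where 4.38% of all genes passed. In 4 mice against 4, the smallest 2-sided p of an exact permutation test is 0.0286.

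The directions were evenly split. Log2 fold changes of BaP over control were above 0 for 14 genes and below 0 for 14, with a median of -0.0082 beside -0.0002 over all tested genes. They ran from -0.39 (*Fcrls*) to 0.38 (*Tlr2*). For 22 of 28 genes (78.6%) the 95% interval of the fold change lay wholly within 1.5-fold in both directions, as it did for 86.3% of all genes. The 6 genes with wider intervals were *Olfml3*, *Fcrls*, *Ctsd*, *Cd74*, *Mrc1* and *Tlr2*. In row 1 alone, in row 2 alone and with groups by source name, 0 probes of the whole table were called, so a count of 0 among the 28 genes says nothing there.

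**Figure D2:**
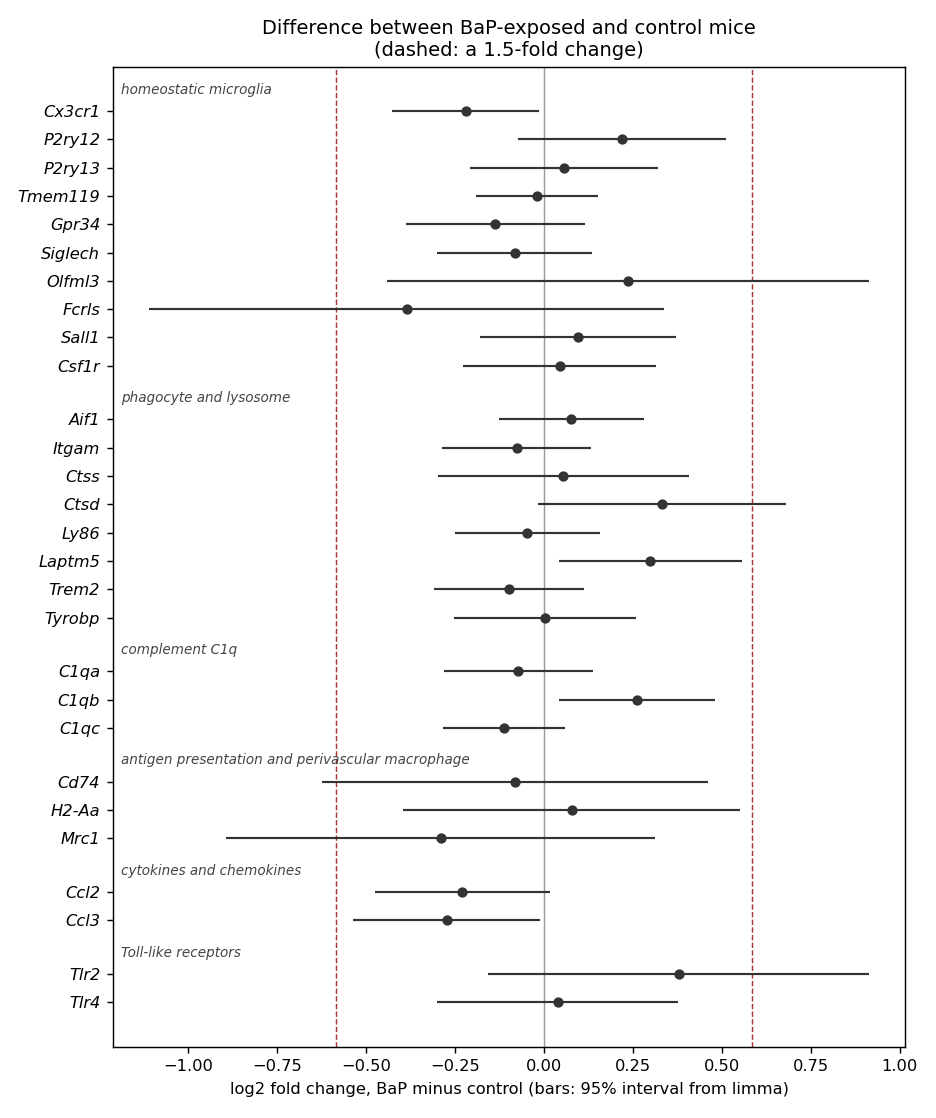
Log2 fold change of BaP-exposed over control mice for the 28 tested genes (points) with the 95% interval from limma (bars), grouped by role, with dashed lines at a 1.5-fold change. The intervals of 22 genes stay between the dashed lines, and those of *Fcrls*, *Mrc1* and *Cd74* cross the lower line while those of *Tlr2*, *Olfml3* and *Ctsd* cross the upper.

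Promoters are shown for 5 genes, so that the letters around each start can be read beside its values: *C1qb*, *Laptm5*, *Cx3cr1* and *Ccl3*, with an unadjusted p under 0.05, and *C1qc*, the neighbor of *C1qb* on the chromosome. Each runs from 250 bases before to 50 bases after the gene's start, 5′ to 3′ on the gene's strand, from RefSeq on GRCm38.p6. Capitals mark GAGGAAG, a core bound by ETS factors such as the myeloid factor PU.1, or GCGTG, the core bound by the aryl hydrocarbon receptor that BaP activates, on either strand. The windows are chr4:136886151-136886450 (- strand) for *C1qb*, chr4:136892865-136893164 (- strand) for *C1qc*, chr4:130913066-130913365 (+ strand) for *Laptm5*, chr9:120068247-120068546 (- strand) for *Cx3cr1* and chr11:83649329-83649628 (- strand) for *Ccl3*.
C1qb: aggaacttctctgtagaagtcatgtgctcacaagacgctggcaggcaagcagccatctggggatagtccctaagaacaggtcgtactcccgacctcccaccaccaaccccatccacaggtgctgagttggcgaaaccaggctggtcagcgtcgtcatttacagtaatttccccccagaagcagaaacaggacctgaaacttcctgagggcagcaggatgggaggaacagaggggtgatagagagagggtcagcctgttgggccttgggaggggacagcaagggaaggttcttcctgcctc
C1qc: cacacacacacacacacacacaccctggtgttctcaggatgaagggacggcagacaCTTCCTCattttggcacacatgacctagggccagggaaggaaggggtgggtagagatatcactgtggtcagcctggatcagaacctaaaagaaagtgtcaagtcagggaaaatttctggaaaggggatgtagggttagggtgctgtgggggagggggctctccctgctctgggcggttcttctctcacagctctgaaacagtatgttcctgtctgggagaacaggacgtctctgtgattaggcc
Laptm5: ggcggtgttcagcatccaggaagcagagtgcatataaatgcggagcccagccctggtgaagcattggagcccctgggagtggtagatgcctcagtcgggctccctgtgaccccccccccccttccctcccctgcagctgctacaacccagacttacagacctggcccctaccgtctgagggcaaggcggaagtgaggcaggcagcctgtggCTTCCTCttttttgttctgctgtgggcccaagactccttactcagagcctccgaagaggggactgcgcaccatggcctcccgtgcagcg
Cx3cr1: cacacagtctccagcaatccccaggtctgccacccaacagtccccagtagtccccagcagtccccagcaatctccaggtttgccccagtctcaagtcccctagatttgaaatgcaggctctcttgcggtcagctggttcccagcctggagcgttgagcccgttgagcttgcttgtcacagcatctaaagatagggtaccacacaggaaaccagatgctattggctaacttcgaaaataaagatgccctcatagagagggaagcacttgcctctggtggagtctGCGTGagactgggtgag
Ccl3: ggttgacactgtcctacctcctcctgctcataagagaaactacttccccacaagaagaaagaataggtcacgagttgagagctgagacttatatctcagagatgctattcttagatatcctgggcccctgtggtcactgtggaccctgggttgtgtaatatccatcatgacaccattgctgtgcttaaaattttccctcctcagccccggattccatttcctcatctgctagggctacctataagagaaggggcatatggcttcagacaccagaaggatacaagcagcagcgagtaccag

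The *C1qc* and *Laptm5* windows each held 1 GAGGAAG, the *Cx3cr1* window held 1 GCGTG, and the *C1qb* and *Ccl3* windows held neither. A promoter was listed for 26 of the 35 genes. GAGGAAG stood in 9 of these 26 and in 13.6% of all 32851 promoters of the same length. GCGTG stood in 5 of 26 and in 32.4% of all promoters. The motifs do not overlap each other in letters, and a match describes letters, not a bound site.

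Genes of homeostatic microglia numbered 11, of which 10 were tested, and 5 had a higher and 5 a lower mean after BaP. The median over the 10 was a log2 fold change of 0.01. Averaged over the 10 genes, the shift from the control mean ranged from -0.12 to 0.18 in control mice and from -0.17 to 0.06 in BaP-exposed mice, so the groups overlapped. In bulk tissue, fewer cells of a type and less RNA per cell cannot be told apart.

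*Cx3cr1* encodes the fractalkine receptor through which microglia sense neurons. It measured 5.58, 5.59, 5.75 and 5.44 in control mice and 5.51, 5.31, 5.41 and 5.26 in BaP-exposed mice. BaP-exposed mouse 1 was the one BaP value inside the control range, while the others lay below every control. This gave a log2 fold change of -0.22 ± 0.09 (SE; limma adjusted p = 0.554; exact permutation p = 0.0571). It was -0.18 in row 1 and -0.26 in row 2, but 0.04 with groups by source name. A dimmer probe of *Cx3cr1* gave a log2 fold change of -0.03 (limma adjusted p = 0.970).

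*P2ry12*, the nucleotide receptor that guides microglial processes, measured 2.65, 3.07, 3.24 and 2.89, against a reference at background, in control mice and 3.37, 3.16, 3.20 and 3.00 in BaP-exposed mice. Its log2 fold change was 0.22 ± 0.13 (SE; limma adjusted p = 0.646), opposite in sign to that of *Cx3cr1*. The lowest value was that of control mouse 1, and without it the change was 0.12. In row 1 it was 0.40, in row 2 0.04 and with groups by source name 0.18. The related receptor *P2ry13* differed by 0.06 and the lipid-sensing receptor *Gpr34* by -0.14, with the groups overlapping.

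*Tmem119*, a membrane protein used as a microglia-specific marker, differed by -0.02 with a 95% interval from -0.19 to 0.15. This was the smallest standard error of the 28 genes, at 0.08. *Csf1r*, the receptor for the survival factor of microglia, differed by 0.04 with an interval from -0.23 to 0.32. On a dimmer *Csf1r* probe, values ran from 0.65 to 0.82 in control mice and from 0.83 to 0.94 in BaP-exposed mice, a log2 fold change of 0.15 without overlap (limma adjusted p = 0.598), and on another it was 0.08 with overlap. *Sall1*, a transcription factor of microglial identity, differed by 0.10, and the lectin *Siglech* by -0.08. A dimmer *Siglech* probe gave 0.05.

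*Fcrls* and *Olfml3*, a scavenger-receptor-like protein and a secreted protein enriched in microglia, varied most between mice. *Fcrls* measured 1.49, 1.78, 2.15 and 1.75 in control mice and 0.27, 1.56, 1.75 and 2.04 in BaP-exposed mice. The value of BaP-exposed mouse 1 lay below all others, and the remaining BaP values lay within the control range. The log2 fold change was -0.39 ± 0.33 (SE; limma adjusted p = 0.739), and without BaP-exposed mouse 1 it was -0.01, while without BaP-exposed mouse 4 it was -0.60. In the Cy5 channel alone it was 0.08, in row 1 -0.72, in row 2 -0.05 and with groups by source name -0.33.

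*Olfml3* measured -1.01, -1.25, -0.07 and -0.93 in control mice and -1.37, -0.35, -0.57 and -0.02 in BaP-exposed mice, a log2 fold change of 0.24 ± 0.30 (SE; limma adjusted p = 0.840). Control mouse 3 lay just below the highest exposed mouse, and BaP-exposed mouse 1 was the lowest of all. Without that mouse the change was 0.50 and without control mouse 3 it was 0.49, while without BaP-exposed mouse 4 it was 0.05, without control mouse 2 0.09 and without BaP-exposed mouse 2 0.16. On a dimmer *Olfml3* probe it was -0.10. It was 0.27 in row 1, 0.21 in row 2 and 0.03 with groups by source name. *Spi1*, which encodes PU.1, the master transcription factor of myeloid cells, was not well above background in Cy5 on any array. The same probe was above background in the reference channel on 8 of 8.

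Phagocyte and lysosome genes numbered 10, of which 8 were tested, with 5 higher and 3 lower on average and a median log2 fold change of 0.03. *Ctsd* and *Laptm5* stood at the upper end of this group. The others ran from -0.10 to 0.08.

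*Laptm5*, a lysosomal membrane protein of blood-derived cells and microglia, measured -0.94, -1.43, -1.08 and -1.14 in control mice. In BaP-exposed mice it measured -0.80, -0.71, -1.04 and -0.84. BaP-exposed mouse 3 fell within the control range and the other exposed mice lay above it. The log2 fold change was 0.30 ± 0.12 (SE; limma adjusted p = 0.537; exact permutation p = 0.0571), 0.43 in row 1, 0.17 in row 2 and 0.13 with groups by source name. A dimmer *Laptm5* probe gave 0.18 (limma adjusted p = 0.695).

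*Ctsd*, which encodes the main aspartic protease of lysosomes, measured -0.02, -0.20, 0.12 and -0.08 in control mice and -0.15, 0.53, 0.59 and 0.16 in BaP-exposed mice. BaP-exposed mice 2, 3 and 4 lay above every control and mouse 1 within the control range. The resulting log2 fold change was 0.33 ± 0.16 (SE; limma adjusted p = 0.584; exact permutation p = 0.171), and 0.47 without mouse 1. A dimmer *Ctsd* probe gave 0.35 (limma adjusted p = 0.509). In row 1 the change was 0.30, in row 2 0.36 and with groups by source name -0.03.

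The remaining genes of the group differed little. *Aif1*, the calcium-binding protein used to stain microglia, differed by 0.08 (95% interval -0.13 to 0.28), and *Itgam*, the alpha chain of the complement receptor CR3, by -0.08 (-0.29 to 0.13). Dimmer *Itgam* probes gave 0.03 and -0.18. *Trem2*, a lipid receptor of activated microglia, differed by -0.10, and its signaling adaptor *Tyrobp* by 0.0027 (-0.25 to 0.26). *Ly86*, a secreted partner of a Toll-like receptor relative, differed by -0.05. *Ctss*, a lysosomal cysteine protease, differed by 0.05, with control mouse 1 highest at 1.1 and the other controls at 0.31 to 0.58. Without that mouse the change in *Ctss* was 0.23. *Cybb*, the catalytic subunit of the phagocyte NADPH oxidase, was well above background on 0 of 4 control arrays and 2 of 4 BaP arrays, and on 8 of 8 in the reference.

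The A, B and C chains of C1q, which assemble into the molecule that starts the classical complement pathway and tags synapses for microglial removal, had unlike values in the comparison. *C1qb* measured 3.48, 3.38, 3.47 and 3.54 in control mice and 3.78, 3.93, 3.51 and 3.71 in BaP-exposed mice. Only BaP-exposed mouse 3 lay within the control range. Its log2 fold change was 0.26 ± 0.10 (SE; limma adjusted p = 0.528; exact permutation p = 0.0571), 0.42 in row 1, 0.10 in row 2 and 0.16 with groups by source name.

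*C1qa* measured 4.29, 4.20, 4.40 and 4.33 in control mice and 4.20, 4.44, 4.08 and 4.21 in BaP-exposed mice, a log2 fold change of -0.07 ± 0.09 (SE; limma adjusted p = 0.842). *C1qc*, averaged over 10 spots per array, measured 3.58, 3.58, 3.70 and 3.70 in control mice and 3.52, 3.57, 3.44 and 3.59 in BaP-exposed mice. Its log2 fold change was -0.11 ± 0.08 (SE; limma adjusted p = 0.680). The groups overlapped for both chains, and the *C1qa* change was 0.08 in row 1, -0.22 in row 2 and 0.15 with groups by source name. That of *C1qc* was -0.04, -0.19 and 0.07.

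Within each mouse, *C1qb* was set against the other chains. This comparison was chosen after the values were seen, and it is given without a test. The log2 ratio of *C1qb* minus that of *C1qa* was -0.81, -0.81, -0.93 and -0.79 in control mice and -0.43, -0.51, -0.57 and -0.50 in BaP-exposed mice. All exposed mice lay above all controls, with a difference of 0.33 between the means. *C1qb* minus *C1qc* was -0.10, -0.19, -0.23 and -0.16 in control mice and 0.26, 0.36, 0.07 and 0.12 in BaP-exposed mice, again without overlap and with a difference of 0.37.

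*C1qa* minus *C1qc* overlapped, with means of 0.67 ± 0.05 and 0.71 ± 0.12 (SD, n = 4 each) in control and BaP-exposed mice. The shift of *C1qb* against *C1qa* was 0.34 in row 1 and 0.32 in row 2, and against *C1qc* it was 0.46 and 0.29. It was smaller in the Cy5 channel alone, at 0.14 and 0.22, and with groups by source name it was 0.01 and 0.09. Among all 378 pairs of the 28 genes, 24 (6.35%) separated the groups without overlap, and these include pairs with *C1qb*. The C1q chains form 3 pairs, so separated pairs were not limited to them. Over the whole array 5.29% of single genes separated, which is a different measure, and pairs of genes outside the 28 were not counted.

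**Figure D3:**
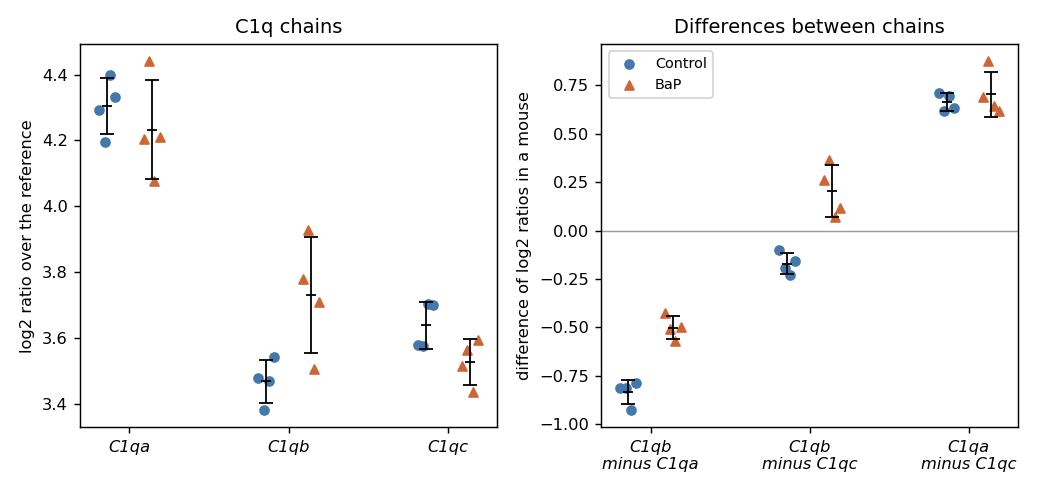
Left, log2 ratio over the reference of the C1q chains in 4 control mice (circles) and 4 BaP-exposed mice (triangles). Right, the difference of log2 ratios between chains within each mouse, where both differences that involve *C1qb* lie higher in all exposed mice and that of *C1qa* minus *C1qc* overlaps. Black marks are the mean and SD of each group.

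Antigen presentation and perivascular macrophage genes were variable between mice. *Cd74*, the invariant chain of MHC class II, ran from -2.71 to -2.0 in control mice and from -3.16 to -1.98 in BaP-exposed mice, and *H2-Aa*, a class II alpha chain, from 0.56 to 1.26 and from 0.43 to 1.49. Their log2 fold changes were -0.08 ± 0.24 and 0.08 ± 0.21 (SE). BaP-exposed mouse 1 was the lowest for both genes, and without it the changes were 0.15 and 0.25.

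*Mrc1*, the mannose receptor of perivascular macrophages, measured 1.46, 1.48, 1.78 and 0.50 in control mice and 0.43, 1.15, 1.18 and 1.30 in BaP-exposed mice. Control mouse 4 and BaP-exposed mouse 1 were both low, at less than every other mouse. *Mrc1* had a log2 fold change of -0.29 ± 0.27 (SE; limma adjusted p = 0.766). It was -0.56 without control mouse 4, -0.13 without control mouse 3 and -0.09 without BaP-exposed mouse 1. In row 1 it was -0.68, in row 2 0.10 and with groups by source name -0.39. *Cd163*, the hemoglobin scavenger receptor of perivascular macrophages, was not well above background on any array in either channel.

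Among the cytokines, *Tnf*, *Il1b* and *Il6*, the classic proinflammatory cytokines, were not well above background in Cy5 on any of the 8 arrays. Each probe was above background in the reference channel on 8 of 8. No level or fold change can be given for them, and a low level in either group is not excluded by these arrays.

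The chemokines *Ccl2* and *Ccl3*, which attract monocytes and other leukocytes, were measured on all arrays. *Ccl3* measured -3.39, -3.16, -3.56 and -3.65 in control mice and -3.89, -3.70, -3.69 and -3.58 in BaP-exposed mice. BaP-exposed mouse 4 fell within the control range and the others lay below it. The log2 fold change was -0.27 ± 0.12 (SE; limma adjusted p = 0.564; exact permutation p = 0.0571), -0.52 in row 1, -0.03 in row 2 and -0.25 with groups by source name. Without control mouse 2, the highest, it was -0.18. *Ccl2*, averaged over 10 spots, ran from -4.89 to -4.61 in control mice and from -5.24 to -4.83 in BaP-exposed mice, a log2 fold change of -0.23 ± 0.11 (SE; limma adjusted p = 0.585) and -0.15 without BaP-exposed mouse 3.

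*Tlr2*, which recognizes bacterial lipoproteins, measured -2.11, -2.66, -2.44 and -2.65 in control mice and -2.86, -1.94, -1.60 and -1.94 in BaP-exposed mice. BaP-exposed mice 2, 3 and 4 lay above every control, and mouse 1 lay below every control. The log2 fold change was 0.38 ± 0.24 (SE; limma adjusted p = 0.657; exact permutation p = 0.314), 0.64 without BaP-exposed mouse 1 and 0.22 without BaP-exposed mouse 3. It was -0.02 in row 1, 0.78 in row 2 and -0.40 with groups by source name. *Tlr4*, the lipopolysaccharide receptor, differed by 0.04 with an interval from -0.30 to 0.38.

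Genes of the same pathways outside the 35 were taken from lists of other microglia genes, disease-associated microglia, MHC class II and border macrophages, inflammatory signaling, NADPH oxidase and other complement. No gene of these lists was called. Of 37 other microglia genes tested, 20 were higher and 17 lower on average, and 1 passed an unadjusted p of 0.05, where 9.46% of all genes passed. That gene, *P2ry6*, the receptor for UDP that prompts microglial phagocytosis, measured 0.31, 0.29, 0.37 and 0.26 in control mice and 0.65, 0.68, 0.60 and 0.47 in BaP-exposed mice. The groups did not overlap, as for 5.29% of all genes, and the log2 fold change was 0.29 ± 0.08 (SE; limma adjusted p = 0.481).

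Of 17 tested genes of disease-associated microglia, 9 were higher and 8 lower. *Spp1*, which encodes osteopontin, had a log2 fold change of -0.27 ± 0.10 (SE; limma adjusted p = 0.515), with exposed mice from -4.07 to -3.74 and controls from -3.73 to -3.47. For MHC class II and border macrophages the split was 6 and 9 of 15. For the NADPH oxidase it was 3 and 2 of 5, and for complement other than C1q 4 and 7 of 11. None of the genes in these last lists passed an unadjusted p of 0.05.

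Of 37 tested genes of inflammatory signaling, 16 were higher and 21 lower, with 2 higher and 3 lower at an unadjusted p of 0.05, beside 5.08% and 4.38% of all genes. The groups did not overlap for 2 higher and 3 lower genes, beside 5.29% of all genes in either direction. *Nfkbia*, which encodes the inhibitor that holds NF-kB in the cytoplasm, measured -1.66, -1.87, -1.39 and -1.78 in control mice and -1.0, -0.80, -0.80 and -0.97 in BaP-exposed mice. The groups did not overlap, and its log2 fold change of 0.78 ± 0.11 (SE) was the largest in this list but was not called (limma adjusted p = 0.147). *Il1rap*, the shared coreceptor of the interleukin-1 family, had a log2 fold change of 0.38 ± 0.12 (SE; limma adjusted p = 0.4996). *Nfkb2*, a precursor of the noncanonical NF-kB subunit, had one of -0.27 ± 0.09 (SE; limma adjusted p = 0.502), also without overlap. *Socs3*, an inhibitor of cytokine signaling, differed by -0.25 without overlap, and *Tnfaip3*, an inhibitor of NF-kB signaling, by -0.43 with overlap (limma adjusted p = 0.544 and 0.549). The cytokine *Il18* differed by -0.21 without overlap (limma adjusted p = 0.590).

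*Nfkbia* is also a glucocorticoid target, and 13 other such genes were tested. Of these, 11 were higher and 2 lower on average, and their mean shift was -0.15 to 0.13 in control mice and 0.17 to 0.34 in BaP-exposed mice. The part of glucocorticoid signaling in the *Nfkbia* value was not tested.

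Choroid plexus markers varied widely between mice, and 2 of the 28 genes, *Tlr2* and *Ctsd*, varied with them. All 14 choroid plexus genes of the list were tested, all 14 had a higher mean in BaP-exposed mice and 0 were called (lowest limma adjusted p = 0.648). Their mean shift from the control mean was 0.54, -0.57, 0.99 and -0.95 in control mice and -1.48, 1.69, 2.11 and 1.08 in BaP-exposed mice. BaP-exposed mouse 1 was thus the lowest of all and the other exposed mice the highest.

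Over the 8 mice, the level of *Tlr2* followed this mean with a Pearson r of 0.93 (exact permutation p = 0.0013; 0.0319 adjusted over the 28 genes) and a Spearman rho of 0.93 (exact permutation p = 0.0022; 0.0312 adjusted). That of *Ctsd* followed it with an r of 0.90 (exact permutation p = 0.0023; 0.0319 adjusted) and a rho of 0.93 (exact permutation p = 0.0022; 0.0312 adjusted). Without the 2 mice farthest from the median of the choroid plexus mean, BaP-exposed mouse 1 and control mouse 4, r was 0.87 for *Tlr2* and 0.96 for *Ctsd*. The other 26 genes did not pass the adjustment. Among them *Olfml3* had an r of 0.76, *Cd74* 0.72 and *H2-Aa* 0.71 (exact permutation p adjusted to 0.280 each), and the last pair fell to 0.25 and 0.27 without those 2 mice. Without those mice r was also -0.97 for *Ccl3* and 0.71 for *Laptm5*, where it was -0.01 and 0.29 over all 8. Both measures come from the same arrays. The permutations ran over all 8 mice without keeping control and BaP-exposed mice apart. A difference between the groups in both measures therefore also enters r and its p. A row of the slide holds 4 arrays, and no r is given over so few. By order, *Tlr2* went up with the choroid plexus mean from mouse to mouse in row 1 and in row 2, and *Ctsd* did so in row 2 but in row 1 had its lowest pair exchanged.

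With the choroid plexus mean as a covariate, a fit added after the data were seen, the log2 fold change of BaP over control was 0.12 ± 0.12 (SE) for *Tlr2*, 0.18 ± 0.10 (SE) for *Ctsd* and -0.03 ± 0.23 (SE) for *Olfml3*. Those of *C1qb*, *Laptm5*, *Cx3cr1* and *Ccl3* were 0.28, 0.29, -0.22 and -0.31, close to the values without it. That of *Cd74* became -0.31, from -0.08 without the covariate. Those of *Fcrls* and *Mrc1* became -0.68 and -0.54 (limma adjusted p = 0.704 each).

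**Figure D4:**
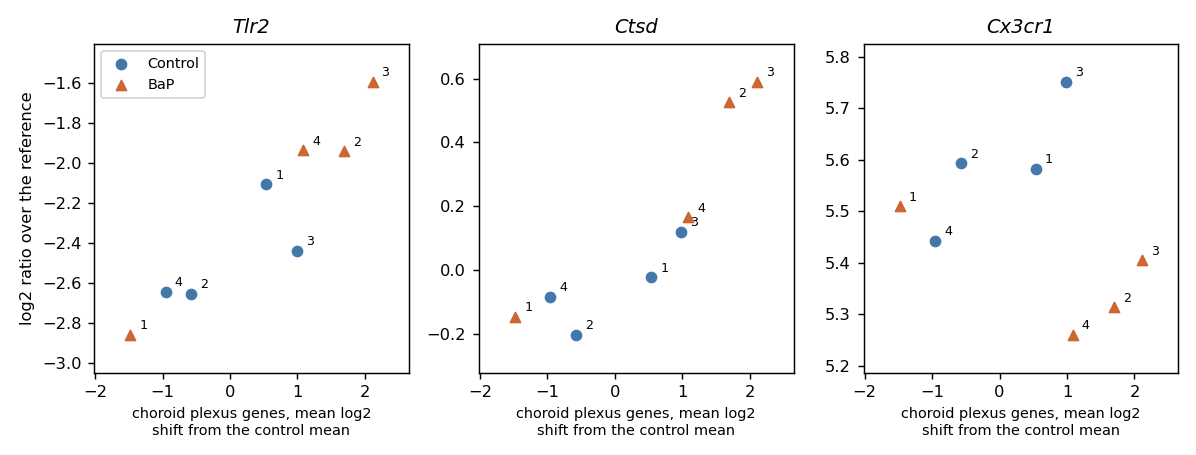
Log2 ratio over the reference of *Tlr2*, *Ctsd* and *Cx3cr1* (vertical axes) against the mean log2 shift of 14 choroid plexus genes (horizontal axis) in 4 control mice (circles) and 4 BaP-exposed mice (triangles), numbered by mouse. *Tlr2* and *Ctsd* rise with the choroid plexus mean (r of 0.93 and 0.90), while *Cx3cr1* does not (r of -0.30).

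Markers of blood cells were measured beside the macrophage genes. Of 7 tested erythroid genes, 7 had a lower mean after BaP and 2 were called, beside 0.0199% of all genes. The mean shift of the list was -0.93 to -0.64 in exposed mice against -0.12 to 0.09 in controls. *S100a9*, a neutrophil calcium-binding protein, had a log2 fold change of -0.68 (limma adjusted p = 0.381) without overlap. Among other blood cell markers, 3 of 11 neutrophil genes, 5 of 7 monocyte genes, 4 of 7 T cell genes and 1 of 5 B cell genes were bright enough to test, and 0 of them were called. The mean was lower after BaP for 3 of 3 neutrophil, 4 of 5 monocyte, 3 of 4 T cell and 1 of 1 B cell genes, with median log2 fold changes of -0.09, -0.14, -0.15 and -0.07. The other neutrophil genes beside *S100a9*, *Camp* and *Elane*, had -0.09 and -0.0047. *Fn1*, the fibronectin gene, is on the monocyte list, was chosen after its values were seen, and had a log2 fold change of -0.53 (limma adjusted p = 0.538). *Vcan*, the versican gene of the same list, had 0.13 without overlap (limma adjusted p = 0.622). The part of blood in the values of *Ccl2*, *Ccl3*, *Laptm5* and the other genes shared with leukocytes was not tested. Astrocyte, oligodendrocyte and neuron lists shifted by -0.03, 0.12 and -0.12 between the group means, and 0 of their genes were called.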

How the data were processed

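Hippocampal RNA of 4 control and 4 BaP-exposed mice was measured on 2-color Agilent arrays. The authors deposited the scanner's median intensity of each spot and of its background in both channels, from Agilent Feature Extraction 11.0.1.1, with 0 or 1 marks for outlier spots and spots above background. They also deposited Feature Extraction's log10 ratio, read here only as a check of scale, and a table of log2 ratios described in the methods as LOWESS-normalized, used as an alternative. Each column of that table had a Pearson r of at least 0.998 with the values computed here and a median from -0.05 to -0.03. Its scale and direction were thereby settled, and its centering is not stated.

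Background was corrected by normexp (offset 50) with limma 3.58.1 (R 4.3.3). Next, control spots were dropped, outlier spots were set to missing, and log2 ratios were normalized by loess within arrays. Replicate spots were averaged. The filter kept a probe if at least 4 of 8 arrays showed it well above background in the Cy5 channel, judged by the majority or an even split of its spots. The fit used lmFit and eBayes with Benjamini-Hochberg adjustment. The methods' analysis of variance was run as a gene-wise F test. Exact permutation tests were 2-sided over 70 assignments. Choroid plexus relations used Python 3.11.15, pandas 2.3.3, numpy 2.4.6 and scipy 1.17.1. The fit was tested on simulated data.

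Of 27752 probes with a RefSeq accession, 27235 (98.1%) were named through a RefSeq table of GRCm38.p6, used for names and promoters, since the arrays were annotated on another build. Genes outside the 35 were named by rule, as up to 3 per list with the smallest p and separate groups. *Socs3*, *Tnfaip3* and *Il18* of the inflammatory signaling list were named in addition, outside this rule. They complete the genes of that list that passed the unadjusted p threshold or had separate groups. For *Tnfaip3* the groups overlapped. The genes and lists were chosen with earlier results of these data known. Choroid plexus, blood and glucocorticoid genes were named where they stood beside a result. The arrays are labeled as separate biological replicates. Their number limits the precision, and for dim probes so does the signal over background. RNA-seq and RT-PCR data were not analysed here.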

Additional observations from a re-analysis of the deposited data

Results flagged for a closer look

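In groups of 4 mice, a sample was marked where its gap to the nearest other mouse took up more of the group's range than Dixon's 95% critical value for 4 samples. Among 68 groups, made of the tested genes and role groups in each condition, 4 were marked where chance gives about 3.4. *Tmem119* was marked in both groups, in control mouse 1 at 0.25 against 0.08 in the others (gap share 0.967) and in BaP-exposed mouse 3 at 0.03 against 0.12 to 0.13 (gap share 0.902). *Gpr34* was 2.51 in BaP-exposed mouse 4 against 2.82 to 2.85 (gap share 0.888). *Trem2* was -0.68 in control mouse 1 against -1.03 to -0.98 (gap share 0.837). The array of control mouse 1 carried the most outlier spots. With outlier spots kept, the log2 fold changes of *Tmem119* and *Trem2* were -0.02 and -0.10, as without them. Without control mouse 1 they were 0.02 and -0.02, and without BaP-exposed mouse 4 that of *Gpr34* was -0.05, from -0.14 with it. Without BaP-exposed mouse 3 that of *Tmem119* was 0.006.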

How the results depend on the processing

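The count of called genes among the 28 was 0 under all 26 alternatives, with a lowest limma adjusted p of 0.218. Only 0 to 7 probes of the whole table were called in any of them, so this count could hardly differ and says little. Among 727 values of single genes, 64, in 24 genes, had the opposite sign, 16 of them on leaving out a mouse. Over the whole table, 3 probes were called, and 6 in the Cy5 channel alone, 5 without a filter on dim probes, 7 with an intensity trend and robust fit, and 0 in the gene-wise F test, row 1, row 2 or groups by source name. Leaving out a mouse gave 1 to 3, with 1 without control mouse 1, 3 or 4 or BaP-exposed mouse 2.

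Median centering in place of loess moved the median of all genes to 0.21. Beside it the medians were 0.20 for the 28 genes, 0.20 for homeostatic microglia, 0.30 for phagocyte and lysosome genes, 0.12 for C1q and 0.0135 for chemokines. Reversed were *Cx3cr1* (0.0416), *Tmem119* (0.24), *Siglech* (0.20), *Itgam* (0.21), *Ly86* (0.20), *Trem2* (0.18), *C1qa* (0.12), *C1qc* (0.11), *Ccl2* (0.0505) and *Cd74* (0.1883) against that shift. In Cy5 alone *C1qa* (0.0885), *C1qc* (0.0038), *Fcrls* (0.084), *Tmem119* (0.0062) and *Tyrobp* (-0.0279) reversed, with a C1q median of 0.0885. In row 1, *C1qa* (0.0782), *Csf1r* (-0.1144), *Ctss* (-0.1862), *Sall1* (-0.0666), *H2-Aa* (-0.127), *Tyrobp* (-0.0128) and *Tlr2* (-0.0188) reversed, with medians of 0.0782 for C1q and -0.38 for chemokines. In row 2, *Siglech* (0.0676), *P2ry13* (-0.0385), *Ly86* (0.0509), *Trem2* (0.0253), *Cd74* (0.0994), *Mrc1* (0.0988) and *Tlr4* (-0.0387) reversed, with medians of -0.19 and -0.13. With groups by source name the medians were 0.15 for C1q, -0.13 for chemokines and -0.16 for Toll-like receptors, and *Cx3cr1* (0.0439), *Gpr34* (0.0911), *Sall1* (-0.16), *Csf1r* (-0.16), *Aif1* (-0.0444), *Ctss* (-0.24), *Ctsd* (-0.0286), *C1qa* (0.15), *C1qc* (0.0748), *Tlr2* (-0.40), *Tyrobp* (-0.0155) and *H2-Aa* (-0.2055) reversed. With the choroid plexus covariate *Olfml3* (-0.0268), *Csf1r* (-0.007), *Tyrobp* (-0.0318), *H2-Aa* (-0.0957) and *Tlr4* (-0.0205) did, without background correction *Tlr4* (-0.0049), and at an offset of 16 *Tyrobp* (-0.0047). Leaving out a mouse gave ranges across 0 for *P2ry13* (-0.0304 to 0.153), *Tmem119* (-0.0342 to 0.0229), *Csf1r* (-0.0244 to 0.1699), *Ctss* (-0.0369 to 0.2266), *Ly86* (-0.0865 to 0.0181), *Tyrobp* (-0.056 to 0.0709), *Cd74* (-0.2446 to 0.1492), *H2-Aa* (-0.0984 to 0.2543) and *Tlr4* (-0.1162 to 0.1249). The cause was not tested.

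The replicate numbers do not pair the mice: deviations of same-numbered mice correlated at -0.35, 0.03, -0.01 and -0.01. With the replicate block, 3 probes and 0 of the 28 genes were called, and the median stayed at -0.01. With slide row as a block, 4 probes and 0 of the 28 were called.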
